A study of Mus musculus with 7 samples.

Results

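The lymphocyte quiescence factors described here are 9 genes: the forkhead factors Foxo1 and Foxo3, the Krüppel-like factors Klf2, Klf3, Klf4 and Klf6, and the antiproliferative genes Btg1, Btg2 and Tob1. They were measured by every probe set whose platform annotation names exactly 1 of them, which gave 29 of the 45101 probe sets on the array and 9 of the 18193 genes named. Another probe set, which names Foxo3 and a second gene, was left out. The mice were Eu-miR-155 transgenic (TG, n = 3), in which the heavy chain enhancer Eµ, active in the B lineage, drives miR-155, and the controls were wild type (WT, n = 4), both of the FVB strain. Age and sex are not given in the labels. B cells were taken from the spleen with a magnetic isolation kit, and each sample was hybridised to its own array.

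A resting lymphocyte is held out of the cell cycle by an active programme. FOXO factors drive genes for survival, homing and cell cycle arrest, and kinases of the PI3K pathway, AKT and SGK1 among them, phosphorylate FOXO proteins and move them out of the nucleus. KLF2 keeps T cells quiescent and controls their homing receptors, and in B cells it restrains the marginal zone fate. BTG and TOB proteins bind the CCR4-NOT deadenylase and speed the decay of messenger RNA, and in mouse T cells BTG1 and BTG2 preserve quiescence. A messenger RNA can fall directly under miR-155 where its 3′ untranslated region pairs with the seed, and FOXO3 has been described as such a target.

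The small RNA that the transgene carries is shown first, because its seed (bases 2 to 8, in capitals) is the part that pairs with targets. The sequence is RefSeq's in GRCm38.p6, chr16:84714143-84714165 on the plus strand.
mmu-miR-155-5p: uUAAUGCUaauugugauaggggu

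Levels are given as the log2 values that the authors computed with GCRMA, so that a difference of 1 is a 2-fold change. A probe set's level cannot be set against that of another probe set, so each comparison below is between arrays. Values have a floor of 2.17, and those not over 4 are called not above background. Testing was limited to probe sets with a value over 4 in 3 or more arrays, of either genotype, which 23 of the 29 member probe sets had. The 6 that were not tested were 1 each of Foxo1, Foxo3, Klf3, Klf4, Klf6 and Tob1, so every gene kept at least 1 tested probe set. B cell markers were bright on all arrays, with a mean over 6 markers of 13.42, 13.44 and 12.98 on TG replicates 1, 2 and 3 and of 13.48 to 13.62 in WT. Every TG mean was thus below every WT mean. Each of the 6 markers had a negative difference, from -0.43 (Pax5) to -0.10 (Ms4a1), and none passed at an adjusted p under 0.05 in limma. The part of this shift in the members' differences was not tested. TG replicate 3 stood apart. Its mean over 6 T cell markers was 8.51, against 3.31 and 3.56 on the other TG arrays and 2.95 to 3.02 in WT, where 5 of the 6 were not above background on any array. Results are therefore also given without it. Leaving it out does not remove the markers of other cells from the TG arrays. The mean over 4 natural killer markers was 6.08, 6.32 and 7.38 on TG replicates 1, 2 and 3, and 3.61 to 3.73 in WT. That over 4 platelet markers was 10.42, 10.49 and 11.33, against 6.80 to 9.07 in WT. Xist was at 13.61 to 13.93 on all TG arrays and on WT replicates 1 and 2, and at 2.22 and 2.81 on WT replicates 3 and 4, so sex and genotype are partly confounded. In RNA from a mixed isolate, fewer cells of a type and less RNA per cell cannot be told apart. The host transcript Mir155hg was at 5.59 ± 0.39 in TG arrays (SD, n = 3) and at 5.54 ± 0.64 in WT arrays (SD, n = 4; limma adjusted p = 0.937), and the labels do not say if the transgene holds that sequence.

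The comparison asks which quiescence factors differ when miR-155 is overexpressed in B cells. Foxo1 and Klf6 fell in the transgenic isolates, by 0.40 to 0.70 in size on the log2 scale over the probe sets that passed. Judged by the brightest tested probe set of each gene, 1 of the 9 passed, Foxo1, where 2.56% of all 9517 tested genes passed as lower. The brightest of Klf6 (-0.36) did not pass. Klf2, Klf3 and Tob1 had differences of -0.67, -0.55 and -0.52 on their brightest probe sets, with more spread, and did not pass the test. Foxo3 (-0.05), Btg1 (-0.15) and Btg2 (-0.21) differed less and did not pass, and Klf4 alone had a positive difference (1.60), which did not pass either. Of the 23 tested probe sets 5 passed limma's test at an adjusted p under 0.05, all lower: the 3 of Foxo1 and 2 of the 4 of Klf6. Over all 20994 probe sets tested 3.65% passed as lower and 5.63% as higher, while 0 member probe sets passed as higher, where 1 (Klf4) had an unadjusted p under 0.05. The difference was negative for 22 of the 23, against 57.7% of all probe sets, and its median was -0.54 for the members and -0.04 for all. The groups did not overlap for 13 probe sets that were lower and 1 that was higher, where 13.3% and 14.2% of all probe sets had no overlap in those directions. The 13 were the 3 of Foxo1, all 6 tested of Klf3 and all 4 tested of Klf6. Probe sets of a gene measure RNA of the same gene, not always the same part of it, and do not count as separate evidence. The number of calls changed when an array was left out. The count of 5 fell to 4 without TG replicate 1, to 0 without TG replicate 2, to 1 without WT replicate 1 and to 0 without WT replicate 2, 3 or 4, and it was 6, the same 5 among them, without TG replicate 3. Over all probe sets the number of calls, 1949 with all arrays, also fell, to 138 without TG replicate 2, to 671 without WT replicate 1 and to 205, 549 and 500 without WT replicates 2, 3 and 4. All 5 kept their sign in every alternative tried.

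**Figure D1:**
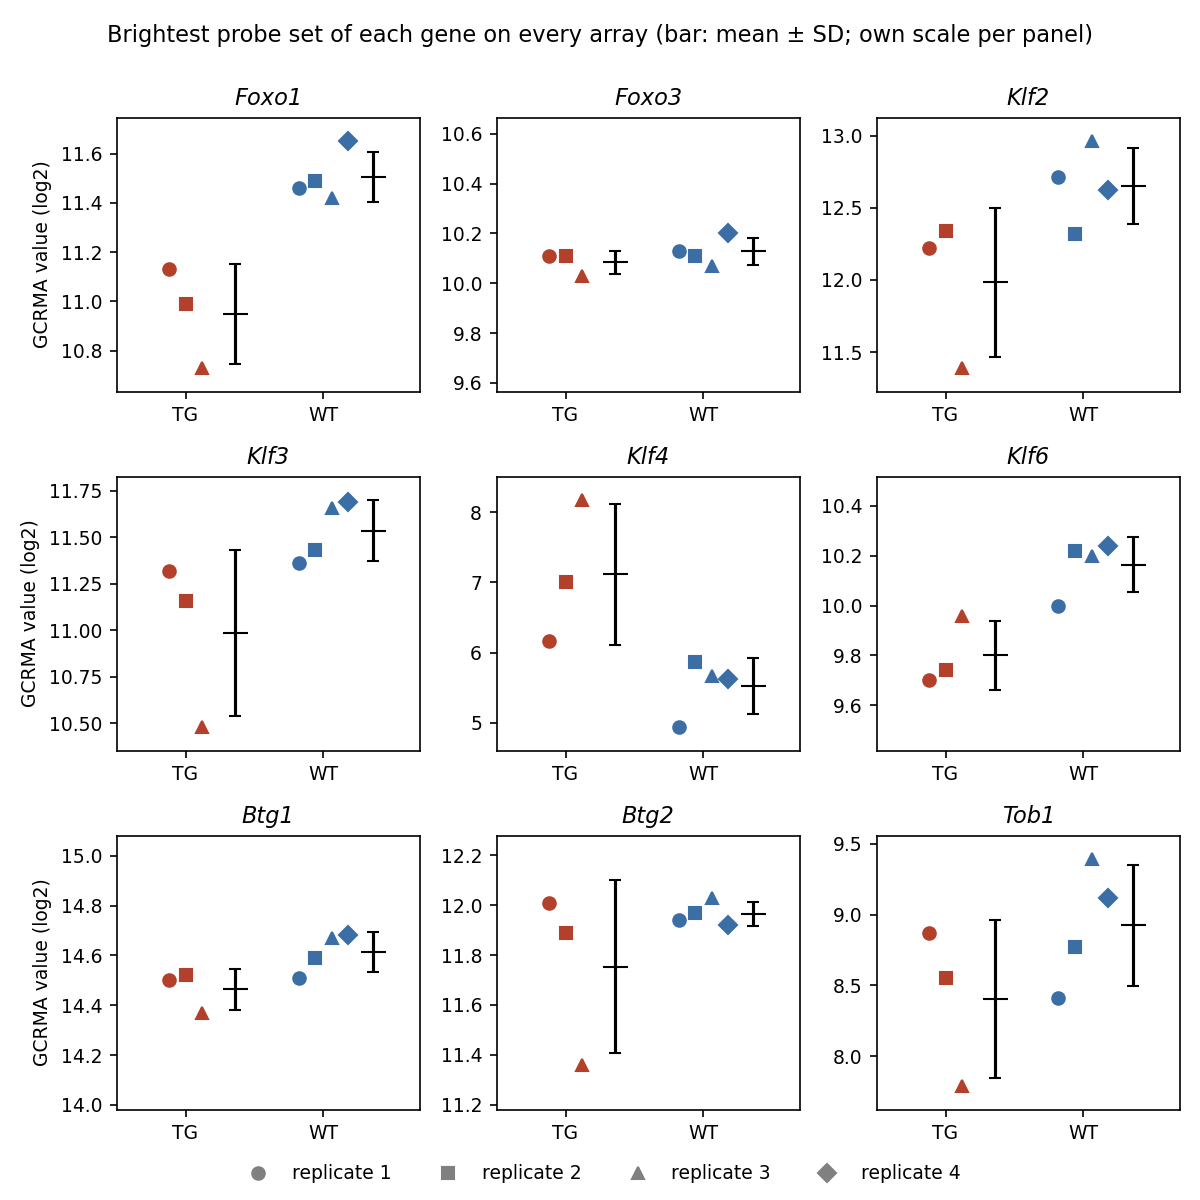
Log2 GCRMA value of the brightest tested probe set of each gene (vertical axis, own scale in each panel) on the 3 TG arrays and the 4 WT arrays; symbols give the replicate and bars the mean ± SD. The TG arrays lie below every WT array for Foxo1, Klf3 and Klf6 and above every WT array for Klf4, and TG replicate 3 is the lowest array in every panel but those of Klf4 and Klf6.

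Foxo1 encodes the forkhead factor that B cells need for precursor development and for homing receptor expression (chr3:52268337-52350109, GRCm38.p6). Its brightest probe set, 1416983_s_at, was at 11.13, 10.99 and 10.73 in TG arrays and at 11.46, 11.49, 11.42 and 11.65 in WT arrays. Every TG value lay below every WT value. The difference was -0.55 ± 0.11 (SE, limma adjusted p = 0.0298), or 68.1% of the WT level once taken out of the log scale. The second, 1416981_at, was at 10.77, 10.71 and 10.38 in TG arrays, against 11.33, 11.19, 11.42 and 11.36 in WT arrays, a difference of -0.70 ± 0.11 (SE, limma adjusted p = 0.0192) and 61.4% of the WT level. The third, 1416982_at, changed by -0.59 ± 0.13 (SE, limma adjusted p = 0.0438). The 3 probe sets had the same direction, and their 95% confidence intervals overlapped. TG replicate 3 was the lowest array on each, and without it all 3 still passed, at -0.59 to -0.43. The probe set 1416983_s_at did not pass without TG replicate 2 (-0.58, limma adjusted p = 0.0954) or without WT replicate 1, 2, 3 or 4 (adjusted p = 0.0677, 0.0855, 0.0668 and 0.0723). The other tested Foxo1 probe sets also missed the threshold without each of those arrays, with adjusted p from 0.0504 to 0.110 in limma. Against WT replicates 1 and 2 alone, which match the TG arrays in Xist, the 3 differences were -0.64 to -0.52 and none passed. The remaining Foxo1 probe set, 1456529_at, was at the lowest value on all 7 arrays.

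Foxo3 encodes the second FOXO factor of lymphocytes (chr10:42181845-42276695). Its probe set 1434831_a_at was at 10.11, 10.11 and 10.03 in TG arrays and at 10.13, 10.11, 10.07 and 10.20 in WT arrays. The groups overlapped. The difference was -0.05, with a 95% confidence interval of -0.17 to 0.07 (limma adjusted p = 0.556), and 1434832_at gave -0.04 (-0.17 to 0.09). Both intervals exclude a fall of the size that Foxo1 showed on its brightest probe set. Within each array, the brightest Foxo1 probe set minus that of Foxo3 had a TG minus WT difference of -0.51 (-0.42 without TG replicate 3), with SDs of 0.16 in TG and 0.05 in WT. The exact two-sided permutation p over the 35 splits of the arrays was 0.0286, the smallest this design allows, and 0.0714 after Benjamini-Hochberg adjustment over the 10 pairs of genes compared within the families. With that floor a single pair could not get under 0.05 after the adjustment, so its not passing there says little. The pairs were compared after the values were seen.

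Klf6 is a Krüppel-like factor gene that is also induced early after stimulation (chr13:5861489-5870393). The probe set 1447448_s_at was at 8.31, 8.16 and 8.28 in TG arrays and at 8.55, 8.71, 8.64 and 8.68 in WT arrays. The groups did not overlap, and the difference was -0.40 ± 0.07 (SE, limma adjusted p = 0.0248). The probe set 1427742_a_at was at 8.84, 8.63 and 8.91 in TG arrays and at 9.10, 9.25, 9.35 and 9.23 in WT arrays, a change of -0.44 ± 0.09 (SE, limma adjusted p = 0.0367). The brightest, 1433508_at, had -0.36 ± 0.09 (SE, limma adjusted p = 0.0526), and the dimmest tested, 1418280_at, had -0.54 ± 0.14 (SE, adjusted p = 0.0570). All 4 thus lay between -0.54 and -0.36, which is 68.6% to 77.7% of the WT level. Here TG replicate 3 was not apart. On the brightest probe set it was the TG array nearest to WT, at 9.96 against 9.70 and 9.74 on TG replicates 1 and 2, and that probe set passed without it (-0.44, limma adjusted p = 0.0361). The call of 1447448_s_at was lost without TG replicate 2 (adjusted p = 0.0922) and without WT replicate 2, 3 or 4 (adjusted p = 0.0762, 0.0633 and 0.0679). That of 1427742_a_at was lost without any of 6 arrays, all but TG replicate 3, with adjusted p from 0.0560 to 0.104 in those fits. The untested 1459718_x_at was at 3.78 to 3.88 in TG arrays and 3.88 to 4.09 in WT arrays.

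Klf2, the factor of T cell quiescence and homing, has a single probe set, 1448890_at (chr8:72319062-72321654). It was at 12.22, 12.34 and 11.39 in TG arrays and at 12.71, 12.32, 12.96 and 12.62 in WT arrays. TG replicate 3 was far below the rest, and TG replicate 2 lay within the WT range. The difference was -0.67, with a 95% confidence interval of -1.28 to -0.05, and did not pass (limma adjusted p = 0.144). TG replicates 1 and 2 averaged -0.37 from the WT mean, and TG replicate 3 was at -1.26.

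Klf3 encodes a repressor of the same family that binds related DNA letters (chr5:64803521-64832901), and 6 of its 7 probe sets were tested. The brightest, 1454666_at, was at 11.32, 11.16 and 10.48 in TG arrays and at 11.36, 11.43, 11.66 and 11.69 in WT arrays. Every TG array was below every WT array on all 6 probe sets, by a narrow margin for TG replicate 1 and a wide one for TG replicate 3. The 6 differences ran from -0.66 to -0.55, with adjusted p from 0.115 to 0.170 in limma, and none passed. Without TG replicate 3 they ran from -0.39 to -0.26 and none passed either. Within arrays, the change of Klf2 minus that of Klf3 was -0.12 (exact permutation p = 0.486, adjusted 0.643 over the 10 pairs).

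**Figure D2:**
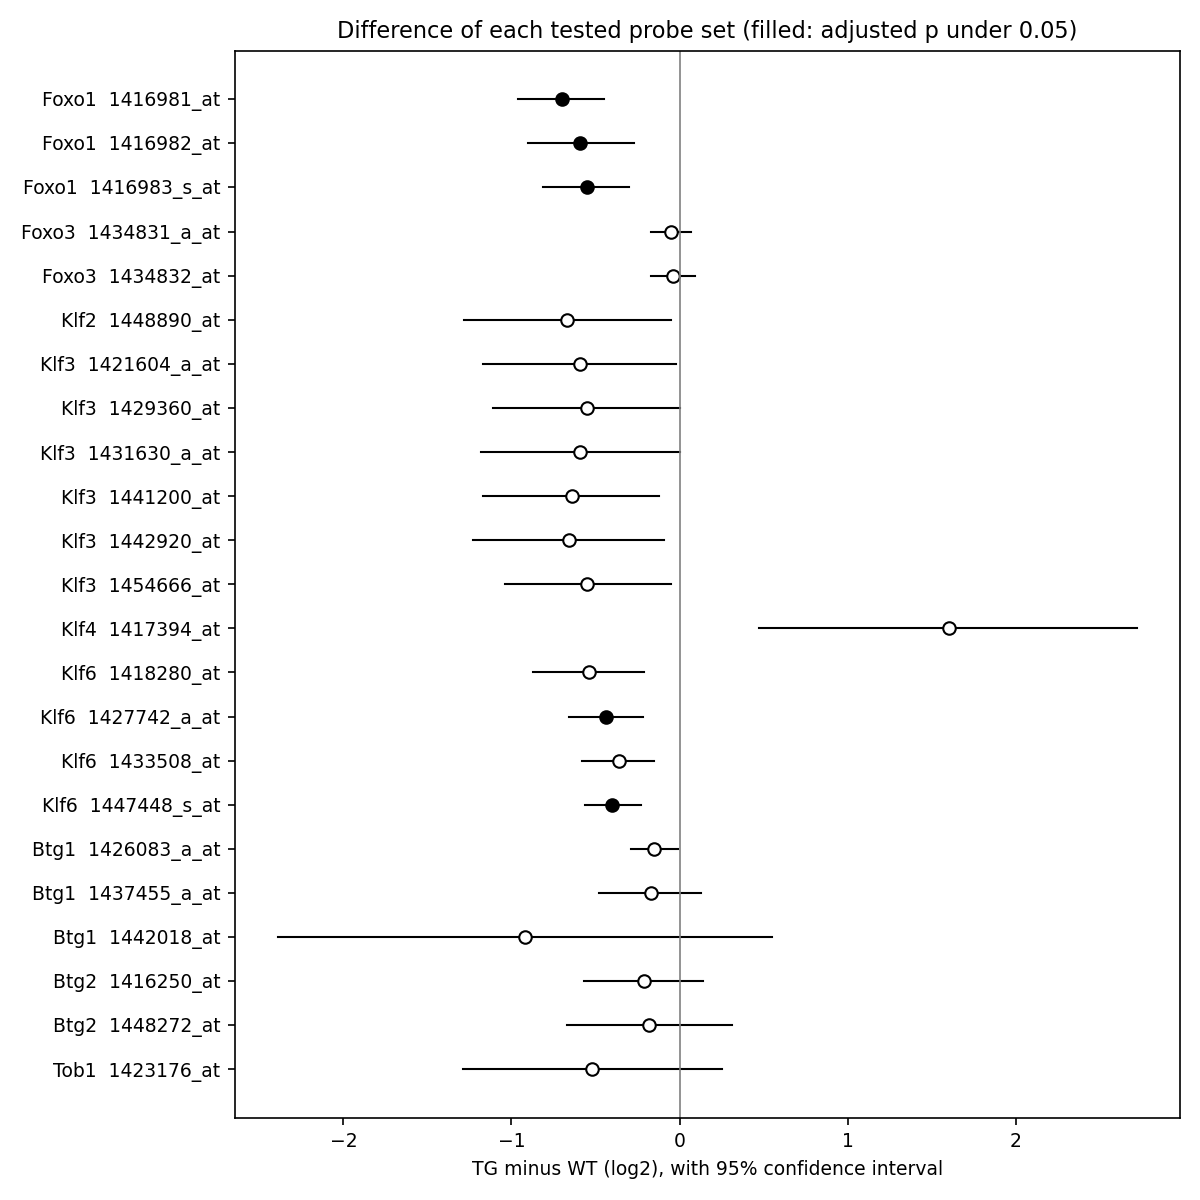
TG minus WT difference on the log2 scale (horizontal axis) of the 23 tested probe sets, with limma's 95% confidence interval; filled circles passed at an adjusted p under 0.05. The 3 Foxo1 probe sets and 2 of Klf6 are filled, the Foxo3 intervals are narrow and hold 0, and the Klf4 point at 1.60 is the only one to the right of 0.

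Klf4 has been tied to the control of B cell proliferation in mice and is also a factor of monocyte differentiation (chr4:55527137-55532475). Its tested probe set, 1417394_at, was at 6.17, 7.0 and 8.17 in TG arrays and at 4.94, 5.87, 5.66 and 5.62 in WT arrays. Each TG value was above each WT value. The difference was 1.60 ± 0.47 (SE), with a 95% confidence interval of 0.47 to 2.72, and did not pass (limma adjusted p = 0.0819). It passed without TG replicate 1 (2.07, limma adjusted p = 0.0381), and was 1.07 without TG replicate 3. A dimmer probe set, 1417395_at, was at 3.67, 4.30 and 5.30 in TG arrays and at 2.50 to 3.65 in WT arrays, where it was never above background. The mean over 7 monocyte and macrophage markers stood in the same order on the TG arrays, at 5.56, 6.02 and 7.42, against 3.97 to 5.54 in WT. Of those markers Cd14 was not above background on any array, C1qa was above it on TG replicate 3 alone, and Cd68 passed as higher. The mean over 5 dendritic cell markers was 5.66, 6.26 and 7.14 in TG and 4.18 to 4.52 in WT. The part of these cells in the Klf4 value was not tested. Klf4 had the opposite sign to Klf2, Klf3 and Klf6. The TG minus WT difference of Klf4 minus Klf6 within arrays was 1.96, and those of Klf2 minus Klf4 and Klf3 minus Klf4 were -2.26 and -2.14. Each of the 3 had an exact permutation p of 0.0286, the smallest possible, and 0.0714 after adjustment over the 10 pairs. All 3 share Klf4 and do not count as separate evidence.

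Among the BTG and TOB genes none passed. Btg1 (chr10:96617001-96622813) was at 14.50, 14.52 and 14.37 in TG arrays and at 14.51, 14.59, 14.67 and 14.68 in WT arrays on its brightest probe set, 1426083_a_at. The difference was -0.15, with a 95% confidence interval of -0.29 to -0.01 (limma adjusted p = 0.152). The second, 1437455_a_at, differed by -0.17 (adjusted p = 0.380). The third, 1442018_at, was at 7.96, 8.59 and 8.26 in TG arrays and at 7.93, 9.84, 10.47 and 8.51 in WT arrays. Its WT SD was 1.17, against 0.08 on the brightest probe set, so the same gene looked stable or variable among WT arrays depending on the probe set. Its difference of -0.92 had an interval of -2.39 to 0.55.

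Btg2 (chr1:134074865-134079155) stood apart on TG replicate 3 alone. Its brightest probe set, 1416250_at, was at 12.01, 11.89 and 11.36 in TG arrays and at 11.94, 11.97, 12.03 and 11.92 in WT arrays. The other TG arrays lay around the WT values. The difference was -0.21 (95% confidence interval -0.57 to 0.14, limma adjusted p = 0.364) and -0.02 without TG replicate 3. The second probe set, 1448272_at, gave -0.18, and 0.09 without that array. Tob1 (chr11:94209842-94215495) was at 8.87, 8.55 and 7.79 in TG arrays and at 8.41, 8.77, 9.39 and 9.12 in WT arrays. The groups overlapped, and the difference was -0.52 (-1.29 to 0.25, adjusted p = 0.312). WT replicates 3 and 4 averaged 0.67 above WT replicates 1 and 2 for this gene, which is larger than the genotype difference. The 3 within-family comparisons of Btg1, Btg2 and Tob1 had exact permutation p from 0.314 to 0.771.

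**Figure D3:**
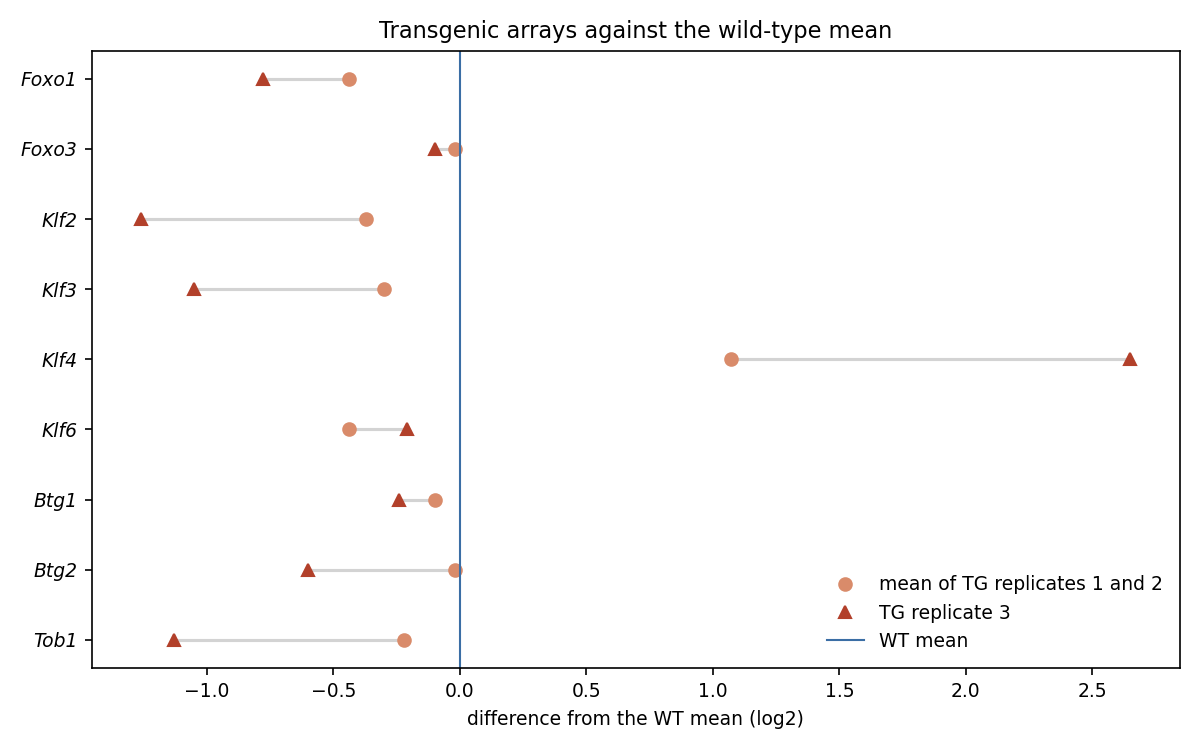
Distance from the WT mean (vertical line at 0, log2 scale) of the mean of TG replicates 1 and 2 (circles) and of TG replicate 3 (triangles), for the brightest tested probe set of each gene. Foxo1 and Klf6 are at -0.44 on replicates 1 and 2, whereas the Btg2 and Tob1 values of replicate 3, -0.60 and -1.13, lie far from those of the other replicates.

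TG replicate 3 was the lowest of the 7 arrays on 16 of the 23 tested probe sets, among them all tested probe sets of Foxo1, Klf2, Klf3, Btg2 and Tob1. The share over all tested probe sets was not counted, so this cannot be read as particular to the members. The main axis of variation over all tested probe sets held 72.3% of the variance. On it TG replicates 1, 2 and 3 were at -23.9, -38.3 and -85.6, and WT arrays at 31.4 to 44.8. The brightest probe sets on TG replicate 3 were at -0.89, -0.75, -0.59 and -0.91 relative to TG replicates 1 and 2 for Klf2, Klf3, Btg2 and Tob1. For Foxo1 that distance was -0.33 and for Foxo3 -0.08, and Klf6 went the other way, at 0.24. The same array had the highest mean over 6 proliferation markers, 10.15, against 8.51 and 8.94 on TG replicates 1 and 2 and 5.31 to 7.16 in WT. All 6 of those markers passed as higher in TG. The granulocyte markers were higher on all TG arrays, with means over 9 markers of 9.35, 7.96 and 8.84 in TG and 2.77 to 3.69 in WT. The part of other cells in the quiescence genes' differences was not tested.

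The genes with the profile most like a member over the 7 arrays were sought for the 3 members whose brightest probe set varied most, by the root mean square distance between profiles centred on their own means, among 9516 other genes. Klf4 (SD 1.07) was nearest to Mgat4b, Litaf and Adgrg1, at distances of 0.188, 0.232 and 0.239. Mgat4b, a glycosyltransferase gene, was at 6.17, 6.83 and 7.95 in TG arrays and at 4.77 to 5.89 in WT arrays. Tob1 (SD 0.52) was nearest to Marchf9, Rhof and Galnt6, at 0.115, 0.136 and 0.154. Klf2 (SD 0.50) was nearest to Banp, Pear1 and Dennd3, at 0.099, 0.105 and 0.123. Banp was at 8.42, 8.31 and 7.39 in TG arrays and at 8.71, 8.25, 8.81 and 8.65 in WT arrays. Its low value on TG replicate 3 follows from its choice as the gene nearest to Klf2 and is not separate evidence.

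The other FOXO, KLF, BTG and TOB genes, like the genes of the lists that follow, are each represented by the brightest tested probe set. By that measure 8.11% of all 9517 tested genes passed as higher and 2.56% as lower, and their median difference was 0.00. Where all tested probe sets of a list are counted, the shares over all 20994 probe sets were 5.63% and 3.65%. Of 11 tested relatives 7 had negative differences, with a median of -0.23. Klf1, the erythroid member of the KLF family, was at 4.46, 7.13 and 7.50 in TG arrays and was not above background on any WT array. It entered the test through the TG arrays alone, so its call as the 1 higher gene of the list is given no weight. Its TG mean of 6.36 was 5.14-fold over a level of 4, and TG replicate 1, at 4.46, was close to that level. The mean over 6 erythroid markers, Klf1 among them, was 3.63, 4.99 and 5.22 on the TG arrays, against 2.32 to 2.37 in WT. Of these Hba-a1, Alas2 and Epor were not above background on any array, and Car1 was at 7.04, 9.19 and 10.02 in TG arrays and at 2.91 to 2.99 in WT arrays. The part of erythroid cells in the Klf1 value was not tested. The other 10 relatives did not pass. Klf12 (-0.62), Klf11 (-0.45), Klf13 (-0.37), Tob2 (-0.34), Klf7 (-0.23), Klf16 (-0.23) and the FOXO gene Foxo4 (-0.19) had negative differences, and Klf10 (0.66), Klf9 (0.37) and Klf5 (0.27) positive ones. A dimmer probe set of Klf12 passed as lower (-0.59, limma adjusted p = 0.0448), so over all 24 tested probe sets of the list 2 passed. Klf14, Klf15, Klf17 and Btg4 were not above background.

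Genes known as FOXO targets or as part of its feedback went both ways. Of 30 tested, Klf2 among them, 2 were higher, 2 were lower and 26 did not pass, with 19 negative differences and a median of -0.16. Over all 66 tested probe sets of the list 8 passed, 3 as higher and 5 as lower. Gabarapl1, which encodes an autophagosome protein, was at 7.95, 8.10 and 8.69 in TG arrays and at 5.75, 6.26, 6.21 and 6.16 in WT arrays. It rose by 2.15 ± 0.21 (SE, limma adjusted p = 0.00689). Ddit4, which encodes an inhibitor of mTOR signalling, was at 12.50, 11.66 and 11.63 in TG arrays and at 10.49, 10.73, 10.90 and 10.51 in WT arrays, a rise of 1.27 ± 0.23 (SE, adjusted p = 0.0279). In neither gene did the groups overlap. In mouse muscle Gabarapl1 is known as a gene that FOXO3 activates. The cyclin-dependent kinase inhibitor gene Cdkn1b (-0.43) and the germinal centre repressor gene Bcl6 (-0.96) fell. With TG replicate 2 or WT replicate 1, 2, 3 or 4 left out, 1, 2, 1, 2 and 1 genes of the list passed, and 5 passed without TG replicate 3.

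Genes that KLF2 is known to regulate in lymphocytes had a median difference of -0.50. The list does not separate genes that KLF2 raises from those it lowers, so the median has no direction in terms of KLF2. Of 11 tested, 1 was higher and 3 were lower. Itgb7, an integrin subunit gene of gut homing, was at 10.62, 10.67 and 10.55 in TG arrays and at 11.15, 11.27, 11.03 and 11.01 in WT arrays, a fall of 0.50 on the log2 scale (-0.50 ± 0.08 SE, limma adjusted p = 0.0193). Fcer2a (-0.82) and Cdkn1b, which is counted in the FOXO list as well, also fell, and Plac8 (0.31) rose. Without TG replicate 3 the number that passed was 6. It was 0, 1, 0, 2 and 2 without TG replicate 2 and WT replicates 1, 2, 3 and 4.

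Among other genes tied to lymphocyte quiescence 1 of 30 tested was higher and 3 were lower, with a median of -0.14. Over all 72 tested probe sets 7 passed, 1 as higher and 6 as lower, in the same 4 genes. Satb1, a chromatin organiser of lymphocytes, was at 11.51, 11.44 and 11.14 in TG arrays and at 12.07, 12.08, 12.15 and 12.04 in WT arrays. The difference was -0.72 ± 0.09 (SE, limma adjusted p = 0.0127), with an SD of 0.04 among the WT arrays. Bach2, a repressor that delays plasma cell differentiation, fell by 0.70 on the log2 scale (-0.70 ± 0.17 SE, adjusted p = 0.0499). Cdkn2c, which encodes an inhibitor of cyclin D kinases, was higher (1.36 ± 0.31 SE, adjusted p = 0.0451). The third of the lower genes was Cdkn1b, so the same probe set is counted as lower in this list, the FOXO list and the KLF2 list. Its call was lost without TG replicate 2 or WT replicate 1, 2 or 4 (limma adjusted p = 0.0514 to 0.0878). The count of 4 was 7 without TG replicate 1 and 0, 1, 0 and 1 without TG replicate 2 and WT replicates 1, 2 and 4.

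The deadenylase subunits and partners through which BTG and TOB proteins act had a median difference of 0.02. Of 17 tested by the brightest probe set, Cnot9 alone passed, at 9.10, 9.15 and 9.28 in TG arrays and 8.78, 8.65, 8.91 and 8.73 in WT arrays (0.41 ± 0.08 SE, limma adjusted p = 0.0325). Prmt1 (0.26), Cnot6 (0.22) and Cnot2 (-0.26) came next and did not pass, although a dimmer Cnot6 probe set did (0.37, limma adjusted p = 0.0440). Cnot9 passed without TG replicate 1 (limma adjusted p = 0.0422) and without WT replicate 3 (0.0464), and in the fits without each of the other arrays its adjusted p was 0.0607 to 0.102. Among 34 genes of upstream control, including the PI3K, AKT, SGK and ERK5 genes, Sgk1 alone passed by its brightest probe set. Over all 102 tested probe sets of these genes 12 passed, 2 as higher and 10 as lower, in 7 genes. Skp2 gave both of the higher ones (0.97 and 0.87, limma adjusted p = 0.0390 and 0.00848), and its brightest probe set did not pass (0.41). Sgk1 was at 7.71, 7.61 and 7.89 in TG arrays and at 8.39, 8.46, 8.95 and 9.09 in WT arrays, a difference of -0.98 ± 0.19 (SE, limma adjusted p = 0.0327). Leaving out single arrays kept the call of Sgk1 only without WT replicate 1 (limma adjusted p = 0.0486). Inpp5d (-0.20), Mef2c (-0.63) and Crebbp (-0.29) did not pass by their brightest probe sets, and the list's median was -0.09. For Mef2c, a transcription factor gene downstream of ERK5, 4 dimmer probe sets passed as lower, at -0.70 to -0.59. Without TG replicate 2 or WT replicate 2, 3 or 4, 0 genes of that list passed, and 2 passed without TG replicate 1.

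**Figure D4:**
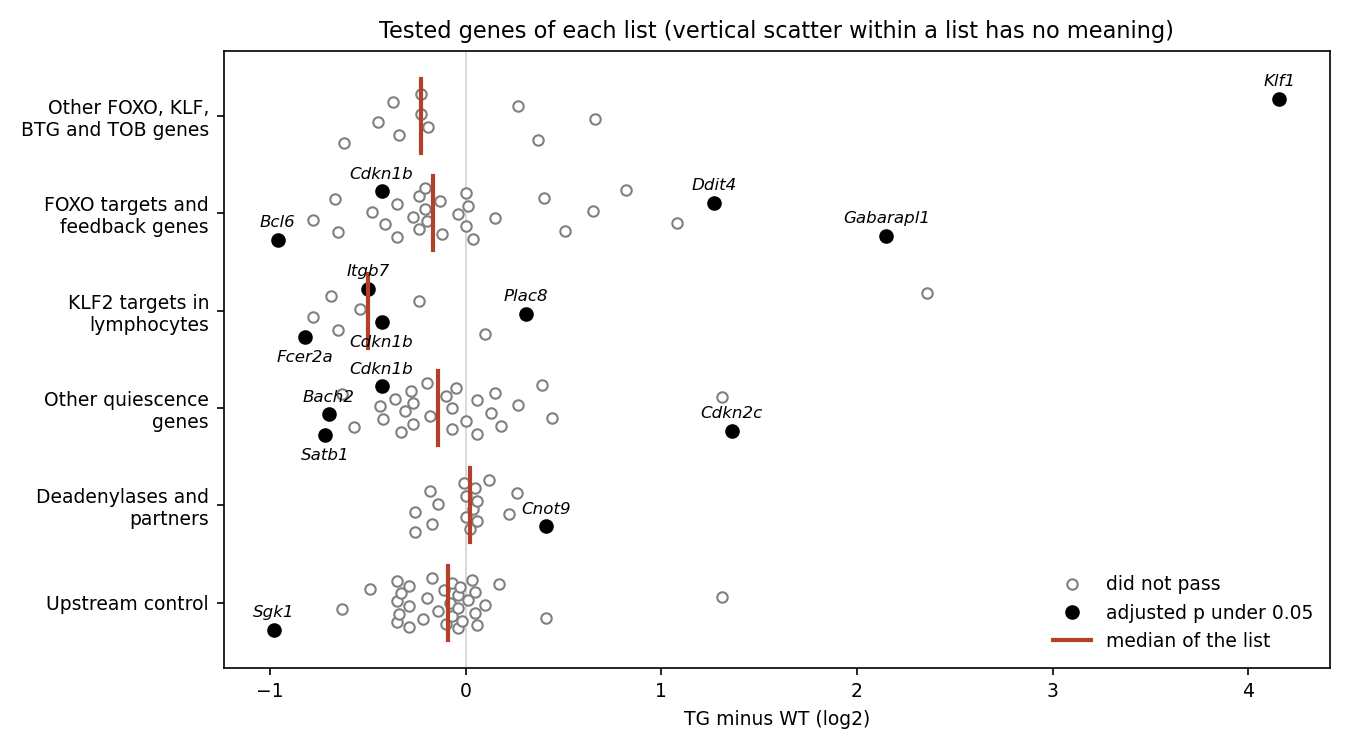
TG minus WT difference on the log2 scale (horizontal axis) of each tested gene in the 6 lists, by its brightest probe set; black points passed at an adjusted p under 0.05 and are named, and red lines are list medians. Klf1 at 4.16 is a fitted value against WT arrays below background and entered through the TG arrays alone, and the KLF2 target list has the lowest median, -0.50.

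Promoter sequence from RefSeq (GRCm38.p6) was searched for the letters that these factors bind, because members regulate other members: FOXO1 is known to activate Klf2 in T cells. All 9 genes matched, with 1 window each, of 250 bases before the start. The FOXO letters GTAAACA, or TGTTTAC on the other strand, were in 1 of the 9, Btg1, 204 bases before the start, and in 3.17% of all 32851 windows. The KLF letters CACCC, or GGGTG on the other strand, were in Klf2 (1 match), Klf3 (5) and Tob1 (3), and in 52.0% of all windows, with a mean of 0.833 matches a window. The windows of Klf2 and Klf3 are shown because these genes had like differences and hold few and many matches, in capitals. The Btg1 stretch is the 30 bases around its FOXO letters, in capitals. A match describes the letters and is not a measured site.
Klf2, chr8:72318812-72319061, plus strand: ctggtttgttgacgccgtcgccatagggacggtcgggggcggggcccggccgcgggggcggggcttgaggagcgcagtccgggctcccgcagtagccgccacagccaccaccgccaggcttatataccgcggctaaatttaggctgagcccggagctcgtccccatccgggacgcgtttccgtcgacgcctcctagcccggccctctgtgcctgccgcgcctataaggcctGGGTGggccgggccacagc
Klf3, chr5:64803271-64803520, plus strand: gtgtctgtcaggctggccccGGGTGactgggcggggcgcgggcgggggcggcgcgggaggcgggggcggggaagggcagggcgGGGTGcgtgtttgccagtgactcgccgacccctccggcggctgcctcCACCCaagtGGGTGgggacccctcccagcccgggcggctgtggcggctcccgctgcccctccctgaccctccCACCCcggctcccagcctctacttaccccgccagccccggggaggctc
Btg1, chr10:96616786-96616815, plus strand: gggggtttattTGTTTACaagcagattacg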

How the data were processed

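RNA of 3 TG and 4 WT samples of splenic B cells was hybridised to 1 array each, per the labels. The authors made the deposited log2 values (2.17 to 16.36) with GCRMA, named without a version in the submitters' processing notes. That method models background from probe sequence, normalizes quantiles and summarises each probe set, so many dim values share a floor (35.5% to 37.0% of each array) and differences of dim genes can be compressed. No scan date was used, and the array's genome build is not known here. Of 45101 probe sets 64 controls were left out, and 34945 name 1 gene in the platform annotation.

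The 20994 probe sets over 4 on 3 or more arrays were fitted in R 4.3.3 with limma 3.58.1 (lmFit, eBayes with an intensity trend, prior degrees of freedom 1.68), adjusting by Benjamini-Hochberg over all of them. A list gene was represented by its brightest tested probe set. Only the design text counts mice, so p-values measure the spread between these samples, and the number of arrays limits precision. Exact permutation of arrays for pairs within families was added after the values were seen. On simulated arrays changes of 1 were called for 74.5% of 200 probe sets and changes of 0.5 for 7%, with 7 and 1 false calls among 20994. The simulated noise was independent between probe sets and only those 200 changed, unlike in the real arrays. These rates therefore do not give the share of real changes that was called. The members, lists and tests were chosen with earlier results of these data known. Named genes are all members and tested relatives, up to 4 genes of smallest p per list plus those that passed, and the 3 nearest profiles of 3 members. Same-numbered arrays' deviations correlated at -0.043, -0.142 and -0.287, so the numbers were not taken as pairs. Alternatives changed the filter, scaling, variance model, weights, covariate and arrays.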

Additional observations from a re-analysis of the deposited data

How the results depend on the processing

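Over 18 alternatives each, the 23 tested member probe sets gave 414 values, of which most kept direction and side of the threshold. All 5 that passed kept their sign in every alternative, with losses of the call and no reversal. Btg2 1448272_at, which did not pass, reversed to 0.03 with array weights (whose estimate stopped before convergence), to 0.09 without TG replicate 3 (-0.34 to 0.09 over the fits without a single array) and to 0.08 without both TG replicate 3 and WT replicate 4. In the order members lower, relatives, FOXO targets, KLF2 targets, other quiescence genes, deadenylases, upstream genes and all probe sets, the numbers passing were 5, 1, 4, 4, 4, 1, 1 and 1949 as reported. They were 0, 0, 1, 0, 0, 0, 0 and 199 with no filter, 0, 0, 1, 1, 0, 0, 0 and 277 with the Xist covariate, 0, 0, 0, 0, 0, 0, 0 and 15 without both WT replicates 3 and 4, and 1, 0, 2, 0, 1, 0, 1 and 687 without both TG replicate 3 and WT replicate 4. With array weights they were 8, 5, 9, 7, 15, 4, 7 and 5945, and 1 member, Klf4, was higher. With the strict filter (over 6) 7 members, 0 relatives and 7 other quiescence genes passed, with median centring 7 other quiescence genes, with quantile normalization 7 members, 8 other quiescence genes and 2 upstream genes, and with values under 4 set at 4, 0 relatives. Counting all tested probe sets of a list gave 2, 8, 7, 2 and 12 for relatives, FOXO targets, other quiescence genes, deadenylases and upstream genes. With the replicate block 0 members, 0 list genes and 4 probe sets in all passed, and the numbers do not pair the arrays. Leaving out single arrays gave 0 to 6 members lower and 0 to 1 higher, 0 to 1 relatives, 1 to 5 FOXO targets, 0 to 6 KLF2 targets, 0 to 7 other quiescence genes, 0 to 1 deadenylases, 0 to 2 upstream genes and 138 to 2149 probe sets. Median centring and quantile normalization left the median difference of all probe sets at -0.04 and -0.09, against -0.04 as reported. The causes were not tested. Dim values limit what the arrays can show, since many share the floor.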
